A study of Mus musculus with 4 samples.

Results

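Immediate early genes are switched on within minutes of a stimulus, without new protein synthesis, and their transcripts are short-lived. Growth factor, stress and calcium signals reach their promoters through mitogen-activated protein kinases and the factors SRF, ELK and CREB, and many of their products are transcription factors that act on later genes. In lung tissue they are known to respond to mechanical strain, injury and enzymatic digestion into single cells. The 10 genes examined here were chosen by name among the 21462 genes of the deposited table: *Fos*, *Fosb*, *Jun*, *Junb* and *Atf3*, which encode leucine zipper factors that form AP-1 and related dimers, *Egr1*, a zinc finger factor, *Nr4a1*, an orphan nuclear receptor, *Ier2* and *Ier3*, which encode small inducible proteins, and *Dusp1*, a phosphatase that inactivates mitogen-activated protein kinases. The choice was made with earlier results of these data known. All 10 genes were in the table, and all 10 passed the minimum mean of 10 that left 16659 genes to test.

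RNA was sequenced from smooth muscle cells of mouse lung (C57BL/6), with 2 libraries from control animals and 2 from animals in which *Tet3*, encoding an enzyme that oxidizes 5-methylcytosine in DNA, had been inactivated in smooth muscle cells. By the study's methods the mutants carried floxed *Tet3*, a tamoxifen-inducible Cre driven by the α-SMA promoter and a tdTomato reporter, and tamoxifen was given to young adult animals. Controls lacked the floxed allele and carried the Cre, the reporter or both. Lungs were digested with collagenase and elastase at body temperature, CD45+ and erythroid cells were depleted on magnetic columns, and living tdTomato+ cells were sorted. Ages at collection are not given in the labels of these libraries. The labels do not say whether the libraries of a group came from separate animals, but the study describes its RNA sequencing of these cells as made on 2 independent animals.

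The table gives normalized counts, scaled and rounded by the authors, whose totals ranged from 6805272 to 7164573 per library. The targeted gene, *Tet3*, stood at 1847 (replicate 1) and 1926 (replicate 2) in the control pair, against 1534 and 1444 in the Tet3 mutant pair (log2 fold change -0.34, limma adjusted p 0.681), and values of all genes are given in this order of replicates. Control replicate 2 stood apart, with more than 2-fold difference from all 3 other libraries in 388 of 10888 genes with a mean of at least 100, and the others in 10 to 73 genes. This library had 2 normalized counts of *Xist*, the transcript of the inactive X chromosome, against 5214 to 6781 in the others. The labels do not give sex, and the study's methods state that males and females were used. Any effect of sex cannot be told apart here from other traits of this library. Markers of smooth muscle were present in all libraries, and no marker of any list was at 0 in any library. Summed levels of 10 smooth muscle markers were 10355 and 10700 in the control pair against 12219 and 11213 in the mutant pair. Of these markers 9 had a log2 fold change above 0, and 1, *Mylk*, the most abundant, was at -0.11. Their median was 0.46 (0.28 to 0.73 with 1 library left out), with 0 past an adjusted p of 0.05 in limma. Sums of 8 endothelial markers were 13722 and 13238 against 14765 and 14308, and those of 8 leukocyte markers 5523 and 4700 against 6403 and 5693. The sorted population thus held RNA typical of other lung cells, and in such bulk samples fewer cells of a type and less RNA per cell cannot be told apart.

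Promoters of 5 members are shown, each with letters of the kinds marked below. Among the stretches not shown, those of *Atf3* and *Ier3* held none of these letters. Whether such letters bear on the members' levels was not tested. RefSeq (GRCm38.p6) promoter windows of 250 bases before to 50 after the start site were at hand for 8 of the 10 genes, all but *Egr1* and *Ier2*. The stretches below run 5′ to 3′ on the gene's strand from position -150, counted from the start site, and end before any annotated exon. Capitals mark the letters TGACG or its complement CGTCA, the core of the CREB site, or the AP-1-like letters TGACATCA.
*Fos*, chr12:85473740-85473869, plus strand: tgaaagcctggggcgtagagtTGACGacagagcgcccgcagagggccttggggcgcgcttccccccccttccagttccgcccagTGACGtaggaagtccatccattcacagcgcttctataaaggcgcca
*Fosb*, chr7:19310066-19310195, minus strand: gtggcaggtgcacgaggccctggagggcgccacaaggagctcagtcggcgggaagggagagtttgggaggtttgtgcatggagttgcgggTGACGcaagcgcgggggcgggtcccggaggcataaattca
*Nr4a1*, chr15:101266696-101266825, plus strand: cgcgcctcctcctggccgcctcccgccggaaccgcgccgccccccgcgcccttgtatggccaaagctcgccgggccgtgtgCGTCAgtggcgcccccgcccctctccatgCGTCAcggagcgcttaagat
*Dusp1*, chr17:26508520-26508622, minus strand: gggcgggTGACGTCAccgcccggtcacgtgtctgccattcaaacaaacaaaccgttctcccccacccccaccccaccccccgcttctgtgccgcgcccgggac
*Jun*, chr4:95052243-95052372, minus strand: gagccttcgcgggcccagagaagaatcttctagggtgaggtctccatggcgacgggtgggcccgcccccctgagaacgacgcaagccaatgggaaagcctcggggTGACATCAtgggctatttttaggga

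Over the full windows and both strands, 6 of the 8 members held TGACG (*Fos*, *Fosb*, *Junb*, *Atf3*, *Nr4a1* and *Dusp1*), against 20.8% of 32851 promoters. The members' windows were rich in G and C (54% to 72.3%, median of all promoters 52.7%), and among the 15291 promoters at or above 54% the share with TGACG was 29.3%. *Nr4a1* had 4 copies and *Fos* a pair, at positions -129 and -66. For *Nr4a1*, *Dusp1* and *Atf3* the RefSeq start lies inside the span that the table gives the gene. The complete palindrome TGACGTCA, which contains TGACG on both strands, was found in *Dusp1* alone, at position -143, and in 1.79% of promoters. TGACATCA was in *Jun* alone (3.62% of promoters). The EGR letters GCGNGGGCG were in *Fosb* and *Nr4a1* (5.55%), CCGGAA, an ETS core, was in *Nr4a1* (14.9%), and the GC box GGGCGG, which overlaps the EGR letters there, was in 7 members (35.7%). TATAAA, searched on the gene's strand only, was in *Fos* and *Junb* (8.32%). TGANTCA, letters that include the AP-1 consensus, and the CArG box, the SRF site, had 0 matches in these windows, against 7.81% and 1.63% of promoters. At such shares 0 matches in 8 windows are uninformative. Sequence outside the windows and the promoters of *Egr1* and *Ier2* were not searched. These are matches of letters and not binding sites.

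**Figure D1:**
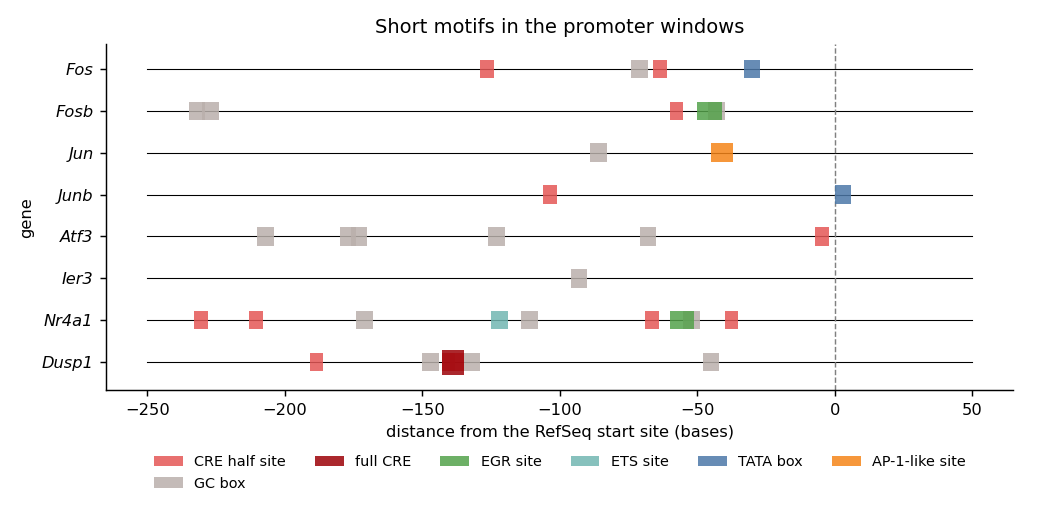
Matches of short motifs in the 8 promoter windows, with distance from the RefSeq start site in bases on the x axis and 1 line per gene. Red bars are TGACG on either strand, present in 6 of 8 genes, and the dark red bar is the full TGACGTCA of *Dusp1*.

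Early transcripts are known for AU-rich elements in the 3′ UTR that shorten their life, and the pentamer ATTTA is the core of these elements. In GENCODE M21 transcripts with the longest coding part, 6 of the 10 members had 3 or more copies, against 34.1% of 13855 protein-coding genes tested. Density exceeded the median of these genes (1.2 copies per kb) in 8 of 10 members, with *Fosb* at 0.466 and *Ier2* at 0 as the exceptions. The densest was *Ier3* at 8.16 copies per kb, followed by *Dusp1* at 5.8, *Nr4a1* at 5.52 and *Fos* at 4.91. The sites below, 30 bases each on GRCm38, show the element in 3 members, with ATTTA in capitals.
*Fos*, chr12:85477100-85477129, plus strand: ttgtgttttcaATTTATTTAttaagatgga
*Dusp1*, chr17:26506157-26506186, minus strand: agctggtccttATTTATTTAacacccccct
*Ier3*, chr17:35822484-35822513, plus strand: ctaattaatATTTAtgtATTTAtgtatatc

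The comparison asks how the early response genes stood in the Tet3 mutant libraries against the control libraries. All 10 members had lower mean levels in Tet3 mutants than in controls on the log2(value + 1) scale, where 51.0% of all genes tested were below 0. The largest differences were those of *Fosb*, *Nr4a1* and *Atf3*, and the smallest those of *Jun* and *Junb*. No member passed an adjusted p of 0.05 in limma (0 of 10, and 0% of all genes tested), and the smallest adjusted p among members was 0.681. At an unadjusted p under 0.05 there was 1 member, *Fosb*, against 6.68% of genes in either direction and 2.85% in the lower one, and without the mean-variance trend in the fit there were 0 members. The median log2 fold change over the 10 members was -0.35, beside -0.0069 over all genes. Both mutants lay below both controls in 5 of 10 members, against 19.5% of genes, and both lay above in 0 of 10, against 19.6% (39.0% of genes did not overlap in either direction). The 10 genes were chosen with earlier results of these data known, share the same 4 libraries and are not replicates of the genotype.

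**Figure D2:**
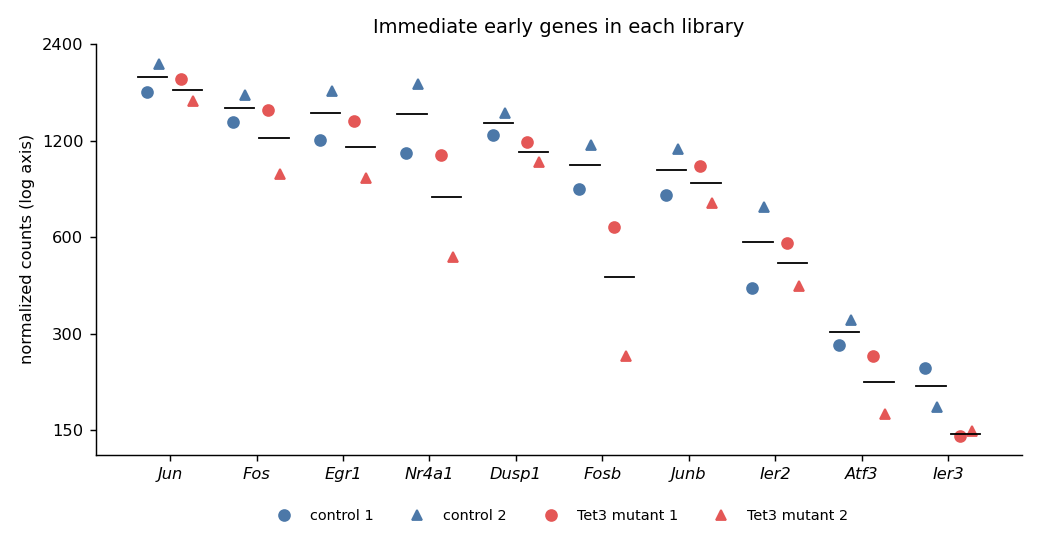
Normalized counts of each gene on a log axis, with blue symbols for controls, red for Tet3 mutants, circles for replicate 1 and triangles for replicate 2. Black lines are group means, and the triangle of control 2 is the highest symbol in 9 of 10 genes.

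*Fos* (ENSMUSG00000021250, chr12:85473890-85477273), the founding member of AP-1, had 1375 and 1662 normalized counts in the control pair against 1498 and 943 in the mutant pair. Mutant replicate 1 lay between the controls and mutant replicate 2 below all other libraries, so the groups overlapped. Its mean was 1519 ± 203 in controls and 1221 ± 392 in mutants (SD, n = 2 each), which gave a log2 fold change of -0.35 (standard error 0.25) and a 95% interval of -0.97 to 0.28 (limma, adjusted p 0.725). Without mutant replicate 2 the log2 fold change was -0.013, without mutant replicate 1 it was -0.68, and without control replicate 2 it was -0.21.

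*Fosb* (ENSMUSG00000003545, chr7:19302696-19310051), a paralogue of *Fos*, had 848 and 1162 in the control pair against 646 and 256 in the mutant pair. The groups did not overlap, but the mutants differed from each other 2.52-fold, a wider gap than that between the group means on the log2 scale. The log2 fold change was -1.29 (standard error 0.45), and the interval, -2.45 to -0.12, was the only one of the 10 that did not include 0. By limma the unadjusted p was 0.036 and the adjusted p 0.681. The log2 fold change was -0.62 without mutant replicate 2 and -1.95 without mutant replicate 1.

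*Jun* (ENSMUSG00000052684, chr4:95049034-95052222), the partner of FOS proteins, was the most abundant member, with 1697 and 2086 normalized counts in the control pair against 1865 and 1590 in the mutant pair. *Junb* (ENSMUSG00000052837, chr8:84976910-84978718), a paralogue of *Jun* that often restrains it, had 812 and 1131 in the control pair against 1001 and 765 in the mutant pair. In both genes mutant replicate 1 lay between the controls, and groups overlapped. Their log2 fold changes were -0.13 for each, with intervals of -0.51 to 0.26 for *Jun* and -0.69 to 0.42 for *Junb* (limma, adjusted p 0.825 and 0.881). Without control replicate 2 these values were 0.021 and 0.11, so the direction rested on that library, and without mutant replicate 2 *Junb* was at 0.063.

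*Atf3* (ENSMUSG00000026628, chr1:191170296-191218039), a stress-induced member of the ATF and CREB family, had 276 and 331 normalized counts in the control pair against 256 and 169 in the mutant pair. The groups did not overlap, although mutant replicate 1 and control replicate 1 were close. The log2 fold change was -0.54 (standard error 0.25) and an interval of -1.17 to 0.097 (limma, adjusted p 0.681), and was -0.24 without mutant replicate 2 and -0.84 without mutant replicate 1.

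*Egr1* (ENSMUSG00000038418, chr18:34859823-34864984), a zinc finger factor induced by growth signals, had 1205 and 1716 normalized counts in the control pair against 1378 and 919 in the mutant pair, again with mutant replicate 1 between the controls. The log2 fold change was -0.35 with an interval of -1.02 to 0.32 (limma, adjusted p 0.728). It was -0.061 without mutant replicate 2 and -0.099 without control replicate 2, and -0.65 and -0.61 without the first replicate of mutants and controls. *Nr4a1* (ENSMUSG00000023034, chr15:101254269-101274795), which encodes the nuclear receptor NUR77, had 1097 and 1805 in the control pair against 1079 and 521 in the mutant pair. Groups did not overlap, by a margin of 1079 against 1097, and the distance between the mutants was 2.07-fold. The log2 fold change was -0.91 (standard error 0.41) and an interval of -1.96 to 0.14 (limma, adjusted p 0.681). It was -0.38 without mutant replicate 2, -0.55 without control replicate 2 and -1.43 without mutant replicate 1.

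*Ier2* (ENSMUSG00000053560, chr8:84661331-84662854), which encodes a nuclear protein, had 417 and 746 normalized counts in the control pair against 574 and 422 in the mutant pair. The 2 controls were the lowest and the highest library, 1.79-fold apart, the widest gap between controls among the members. Its log2 fold change was -0.18 with an interval of -0.99 to 0.63 (limma, adjusted p 0.889), and was 0.24 without control replicate 2 and 0.041 without mutant replicate 2. *Ier3* (ENSMUSG00000003541, chr17:35821684-35822923), whose product acts in cell survival under stress, was the exception to the shared order of libraries, with 234 and 177 in the control pair against 144 and 149 in the mutant pair. Its mutants agreed within 1.03-fold, both lay below both controls, and the log2 fold change was -0.47 (standard error 0.21) (limma, unadjusted p 0.0705, adjusted p 0.681), against -0.27 without control replicate 1.

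*Dusp1* (ENSMUSG00000024190, chr17:26505590-26562128), the feedback phosphatase, had 1253 and 1464 normalized counts in the control pair against 1185 and 1029 in the mutant pair, without overlap. Its mean was 1359 ± 149 in controls and 1107 ± 110 in mutants (SD, n = 2 each), and the log2 fold change was -0.29 (standard error 0.14) and an interval of -0.64 to 0.051 (limma, adjusted p 0.681), and was -0.18 without control replicate 2 and -0.19 without mutant replicate 2. *Dusp1* and *Ier3* were the 2 members whose difference between groups exceeded the gap within each group. The share of all genes tested that meet this was not computed, so the count is a description only. Exons of *Jun*, *Junb* and *Dusp1* overlap those of *Junos*, *Prdx2* and *Ergic1* on the other strand, and since it is not stated whether counting used strand, their values are less certain.

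**Figure D3:**
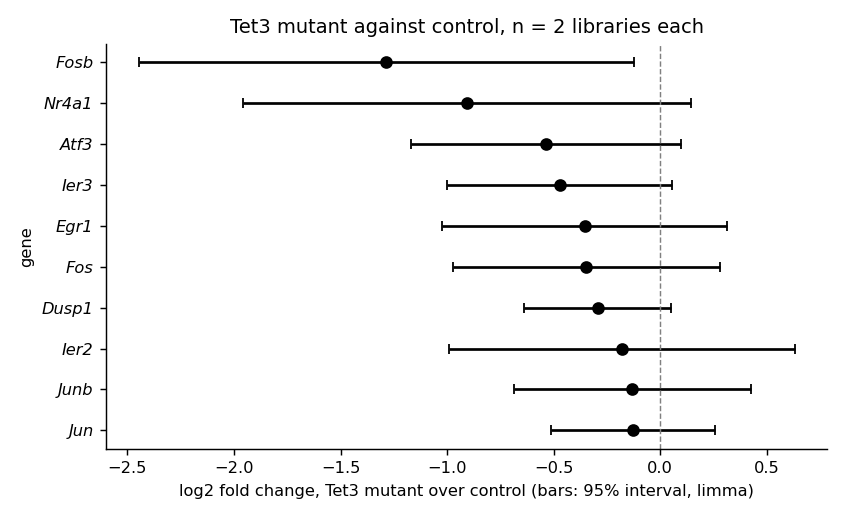
Log2 fold change of each gene, Tet3 mutant over control, with 95% intervals from limma. All 10 points lie below 0, from -1.29 for *Fosb* to -0.13 for *Jun*, and the interval of *Fosb* is the only one that excludes 0.

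The order of the libraries was shared by most members and did not follow the genotype alone. Control replicate 2 was the highest library for 9 of 10 members (33.2% of all genes tested) and Tet3 mutant replicate 2 the lowest for 8 of 10 (20.8% of genes). Both held together for 8 of 10 members, all but *Ier2* and *Ier3*, against 10.2% of genes, a pattern described after the values were seen. Control replicate 1 and mutant replicate 1, between these extremes, were alike on average only. The mean of the members' log2 values relative to each gene's own mean was 0.049 and 0.040, against 0.41 in control replicate 2 and -0.50 in mutant replicate 2. Single members ranged from -0.33 to 0.44 in control replicate 1 and from -0.26 to 0.16 in mutant replicate 1. The members' medians were 0.036 in control replicate 1, 0.061 in mutant replicate 1, 0.35 in control replicate 2 and -0.39 in mutant replicate 2. Medians of all genes tested were within 0.0057 of 0, which the authors' scaling between libraries largely sets. Mutant replicate 1 exceeded control replicate 1 in 5 of 10 members.

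The size of this gradient differed between members. From control replicate 2 to mutant replicate 2 *Fosb* differed 4.54-fold and *Nr4a1* 3.46-fold, whereas *Dusp1* differed 1.42-fold, *Jun* 1.31-fold and *Ier3* 1.19-fold. Among the 36 pairs of members without *Ier3*, the correlation of log2 values over the 4 libraries had a median of 0.92 (range 0.64 to 1.00), given as a description since the pairs share the same 4 libraries. Pairs with *Ier3* had a median of 0.27.

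The size of the difference depended on single libraries. The median log2 fold change of the members was -0.20 without control replicate 2 and -0.13 without mutant replicate 2, and was -0.54 and -0.55 without control replicate 1 and without mutant replicate 1. The number of members below 0 was 7 and 8 in the first pair of cases and 10 in the second pair. Without control replicate 2 or mutant replicate 2, every remaining mutant lay below every remaining control in 5 members. This held for 10 members without control replicate 1 and for 9 without mutant replicate 1. A lone library separates from a pair more easily than 2 from 2, and shares over all genes were not computed here. At an unadjusted p under 0.05 in limma there were 4 members among 273 genes without mutant replicate 1, 1 among 905 without control replicate 2, 0 among 411 without mutant replicate 2 and 0 among 3362 without control replicate 1.

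**Figure D4:**
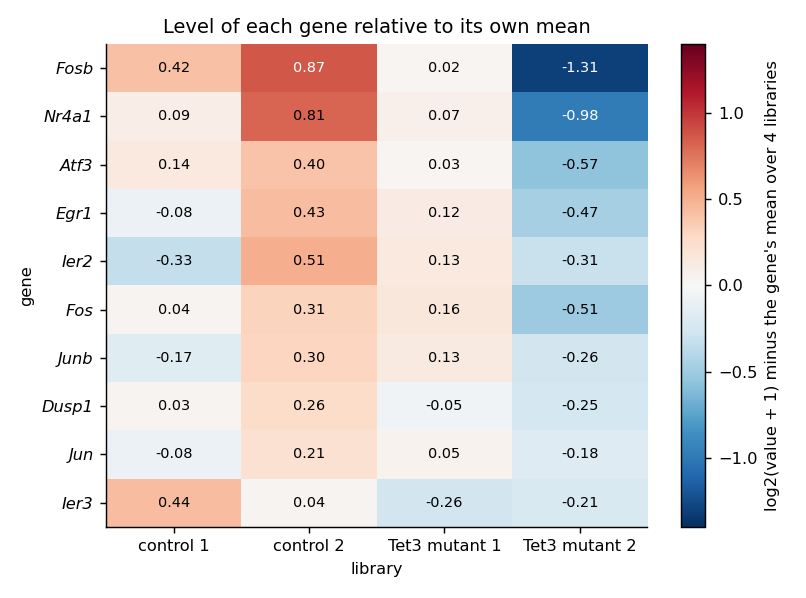
Log2(value + 1) of each gene in each library minus the mean of that gene over the 4 libraries, red above and blue below it. Genes are ordered by the distance from control 2 to Tet3 mutant 2, which is largest in *Fosb* (0.87 against -1.31), and *Ier3* is the one gene with its highest value in control 1.

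Levels per length, over the exons of GENCODE M21, put the members among the abundant transcripts. The model of *Junb* in the table is shorter than the one used for its length, so its levels per kb are understated. Its place in the order below is therefore uncertain. In controls *Fos* had 646 and *Jun* 593 normalized counts per kb of exon, higher than 99.7% and 99.6% of the genes tested. *Junb* (422), *Nr4a1* (414), *Dusp1* (410), *Ier2* (382) and *Egr1* (326) followed, and *Ier3* (182), *Fosb* (161) and *Atf3* (141) were lowest. The lower control value of *Egr1* exceeded the higher one of *Ier3*. The ranges of the 2 controls overlapped for the other neighbours in this order, pairs with *Junb* left aside for its length. Within each control library *Fos* was above *Jun*, *Ier2* above *Egr1* and *Fosb* above *Atf3*. By the mutant means *Jun* (542) was above *Fos* (519). This held in mutant replicate 2 only (499 against 401), while in mutant replicate 1 *Fos* was above *Jun* (637 against 585). *Fosb* was last in both mutant libraries, with a mean of 72.2 normalized counts per kb.

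Genes of other AP-1 proteins lay on both sides of 0. Of 8 such genes 7 were tested, with 4 below 0, 0 past an adjusted p of 0.05 in limma, 0 at an unadjusted p under 0.05 and a median log2 fold change of -0.0069, which was 0.041 with equal library totals and 0.0041 with TMM scaling. *Fosl2*, a FOS relative, had 1175 and 1364 normalized counts in the control pair against 1384 and 1147 in the mutant pair. *Jund*, a JUN paralogue, had 947 and 1247 in the control pair against 1010 and 972 in the mutant pair. *Batf3*, a factor of dendritic cells, stood at 59 and 68 in the control pair against 92 and 98 in the mutant pair, with a limma adjusted p of 0.681. Of the 7 genes 0 had control replicate 2 highest and mutant replicate 2 lowest.

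Of 17 further early genes 16 were tested, and *Egr4* was not analysed here. The median was -0.078, 9 were below 0, 0 passed an adjusted p of 0.05 in limma, and 3 had an unadjusted p under 0.05, each lower. These were *Csrnp1*, a nuclear factor induced by AXIN1, *Cebpd*, a leucine zipper factor of the acute phase, and *Klf2*, a Krüppel-like factor. *Csrnp1* had 336 and 332 normalized counts in the control pair against 221 and 192 in the mutant pair, a log2 fold change of -0.69 (standard error 0.15). *Cebpd* had 820 and 845 in the control pair against 588 and 595 in the mutant pair, a log2 fold change of -0.49 (standard error 0.10). Replicates of these 2 genes lay close together. *Klf2* had 647 and 703 against 474 and 550, and *Myc*, the growth regulator, was in the other direction with 94 and 86 against 113 and 140. All 4 had an adjusted p of 0.681 in limma. Chosen after their values were seen, *Egr3* (124 and 316 in controls, 232 and 82 in mutants) and *Nr4a2* (152 and 264 against 206 and 147) were the 2 of 16 genes of this list with control replicate 2 highest and mutant replicate 2 lowest, an order held by 10.2% of all genes.

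Feedback inhibitors, which end the early response by dephosphorylating kinases, blocking receptors or degrading transcripts, had 23 of 23 genes tested. Of these 19 were below 0, against 51.0% of all genes tested, and 0 passed an adjusted p of 0.05 in limma. At an unadjusted p under 0.05 in limma there were 4, each lower (2.85% of genes). Both mutants lay below both controls in 10 (19.5% of genes), with 0 the other way (19.6%). Their median log2 fold change was -0.17. *Errfi1*, an inhibitor of the EGF receptor, had 1113 and 1707 normalized counts in the control pair against 491 and 783 in the mutant pair, a log2 fold change of -1.15 (standard error 0.30). *Sik1*, a kinase induced by cyclic AMP, had 1353 and 1260 in the control pair against 691 and 874 in the mutant pair, at -0.75 (standard error 0.15). The phosphatase gene *Dusp4* (177 and 257 against 94 and 142) and *Spry2* (374 and 623 against 259 and 329), an inhibitor of receptor tyrosine kinase signalling, had log2 fold changes of -0.88 and -0.72. For these 4 genes the limma adjusted p was 0.681. In all 4 mutant replicate 1 was the lowest library, whereas mutant replicate 2 was lowest in 8 members. *Errfi1*, *Dusp4* and *Spry2* ran from control replicate 2 through control replicate 1 and mutant replicate 2 down to mutant replicate 1, as did the summed level of 8 alveolar type 2 markers (24316, 16212, 14527 and 11233), whose part in these values was not tested. Chosen after the values were seen, *Zfp36*, which destabilizes AU-rich transcripts, had 802 and 1169 in the control pair against 856 and 603 in the mutant pair, and *Btg2*, an antiproliferative early gene, 1180 and 1759 against 1260 and 916. These 2 and *Zfp36l1* and *Ppp1r15a* were the 4 genes of the list in the order of the members.

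Kinases upstream of the early genes were near 0. All 15 were tested, with a median log2 fold change of -0.061, a range from -0.15 to 0.12, 0 past an adjusted p of 0.05 in limma and 0 at an unadjusted p under 0.05. Control replicate 2 was highest and mutant replicate 2 lowest in 3 of the 15, *Braf* among them, against 10.2% of all genes. *Braf*, a kinase at the head of the cascade, had 1068 and 1141 normalized counts in the control pair against 1002 and 987 in the mutant pair. *Rps6ka4*, encoding a kinase that phosphorylates CREB and histones, had 486 and 460 against 491 and 521. Of the 14 factors upstream 14 were tested with a median log2 fold change of -0.035, which was 0.014 with equal library totals, 10 were below 0, 0 passed an adjusted p of 0.05 in limma, and 1 had an unadjusted p under 0.05. That gene was *Srf*, whose product binds the serum response element, with 612 and 573 in the control pair against 435 and 439 in the mutant pair, a log2 fold change of -0.44 (standard error 0.11) (limma, adjusted p 0.681). Its partners *Elk1*, *Elk3* and *Elk4* had log2 fold changes of -0.013, 0.14 and -0.058, and *Creb1*, which binds the TGACG core, -0.060, with limma adjusted p from 0.762 to 0.987. *Mef2c*, a muscle factor downstream of p38 and ERK5, had 844 and 584 in the control pair against 959 and 892 in the mutant pair (0.40), and *Crem* and *Mef2d* had -0.23 and -0.18.

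Genes of the delayed response, many of them AP-1 targets, had 15 of 17 genes tested. Their median log2 fold change was -0.029, which was 0.020 with equal library totals. Of these genes 8 were below 0 and 0 were past an adjusted p of 0.05 in limma. At an unadjusted p under 0.05 in limma there were 3, each higher, against 6.68% of all genes in either direction. *Mmp3*, encoding stromelysin, had 517 and 526 normalized counts in the control pair against 846 and 819 in the mutant pair, a log2 fold change of 0.67 (standard error 0.11). *Plau*, encoding urokinase, had 173 and 176 against 243 and 288, and *Timp1*, an inhibitor of metalloproteinases, 63 and 31 against 86 and 107. *Ccn1*, a secreted matrix protein induced early by serum, had 1276 and 1269 in the control pair against 1106 and 721 in the mutant pair. The limma adjusted p was 0.681 in each.

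**Figure D5:**
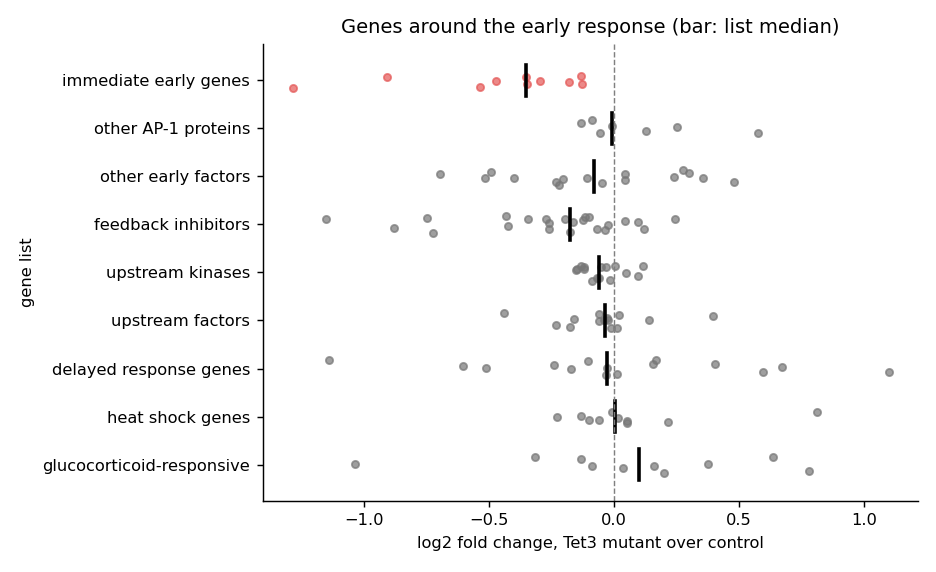
Log2 fold changes of the tested genes of each list, Tet3 mutant over control, with the list median as a black bar and the 10 immediate early genes in red. The medians are -0.35 for the immediate early genes, -0.17 for feedback inhibitors and between -0.078 and 0.099 for the other 7 lists.

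Heat shock genes, which are induced by protein damage, had a median log2 fold change of 0.0051 with 5 of 10 below 0, 0 past an adjusted p of 0.05 in limma and 1 at an unadjusted p under 0.05. That was *Hsph1*, an HSP110 chaperone, with 581 and 474 normalized counts in the control pair against 932 and 915 in the mutant pair (0.81, standard error 0.14, limma adjusted p 0.681). *Hspd1*, the mitochondrial chaperonin, had 432 and 503 against 534 and 550. In none of the 10 did control replicate 2 stand highest and mutant replicate 2 lowest. Glucocorticoid-responsive genes, a group to which *Dusp1* also belongs, had 10 of 10 tested, a median of 0.099, 4 below 0, 0 past an adjusted p of 0.05 in limma and 1 at an unadjusted p under 0.05. *Per1*, a clock gene that is also an early gene, had 1429 and 1336 in the control pair against 596 and 761 in the mutant pair, with a limma adjusted p of 0.681, while *Fkbp5* (309 and 289 against 362 and 729) and *Zbtb16* (897 and 1028 against 1127 and 1982) were highest in mutant replicate 2, where *Dusp1* was lowest. *Tsc22d3*, encoding the glucocorticoid-induced leucine zipper protein, was lower in the mutant pair (654 and 881) and had 936 and 956 in the control pair, a log2 fold change of -0.32 (limma, adjusted p 0.689).

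Markers of other cells differed between libraries too. Alveolar type 2 markers, 8 of 8 below 0 with a median log2 fold change of -0.60 (-0.85 to -0.37 with 1 library left out), had summed levels of 16212 and 24316 in the control pair against 11233 and 14527 in the mutant pair. Like the members they were highest in control replicate 2, but they were lowest in mutant replicate 1, whereas the sum of the members was 9214 and 12280 in the control pair against 9626 and 6763 in the mutant pair. Neutrophil markers had sums of 1059 and 816 against 1939 and 1304, ciliated cell markers 1400 and 1446 against 2918 and 2022, fibroblast markers 18043 and 14899 against 19063 and 17105, pericyte markers 4498 and 4725 against 6371 and 5499, alveolar type 1 markers 2121 and 3323 against 1692 and 2253, and mesothelial markers 244 and 63 against 72 and 85. None of these sums was highest in control replicate 2 and lowest in mutant replicate 2. The part of cell makeup or of tissue handling in the members' values was not tested.

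The genes most like the members in profile, by the Euclidean distance of centred log2 values over the 4 libraries to the members' mean, were *Kyat3* (0.078), *Firre* (0.083), *Gm37352* (0.084), *Gm42979* (0.10) and *E330034L11Rik* (0.10). *Kyat3* encodes a kynurenine aminotransferase, *Firre* is an X-linked long noncoding RNA, and the other 3 are transcript models of uncertain status in GENCODE. *Firre* had 851 and 1072 normalized counts in the control pair against 895 and 587 in the mutant pair. A likeness over 4 libraries is a description, and none of the 5 is an early gene of the lists used here.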

How the data were processed

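RNA of 2 control and 2 Tet3 mutant libraries was analysed, grouped by the genotype and replicate number in their titles. Per the labels and the study's methods, the pipeline was Trimmomatic (0.36) for trimming, STAR (2.6.0c) for alignment to mm10 (GRCm38), and featureCounts of Subread (1.6.0) for gene counts, which left out reads on several genes or places. The deposited values are a score: gene counts that the authors scaled between libraries with DESeq2 and then rounded. A count model needs unscaled reads and was not used.

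Values were tested as log2(value + 1) with limma 3.58.1 in R 4.3.3 (lmFit, eBayes with trend) over the 16659 genes whose mean reached 10, with Benjamini-Hochberg adjustment over all of them and a threshold of 0.05. Fold changes on this scale understate changes of low genes, and their intervals are 95% intervals of the moderated fit. The script was tested on simulated data. With 2 against 2 libraries an exact permutation test cannot go below 0.333. If 1 normalized count were 1 read, counting error alone would be 8.33% for the lowest member value (144) and 2.19% for the highest (2086), and this covers counting only, because PCR copies could not be told from separate molecules.

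The members and lists were chosen with earlier results of these data known. Each member is named, and in each other list at most 4 genes by size of the log2 fold change (mean 50 or more, no overlap between groups), plus *Srf*, *Elk1*, *Elk3*, *Elk4* and *Creb1*. *Fosl2*, *Jund* and genes marked in the text were added after their values were seen. A gene of the upstream kinases that this rule names is not reported here. *Mrtfa*, *Mrtfb*, *Ccn1* and *Ccn2* were matched by older symbols. Exon lengths and 3′ UTRs came from GENCODE M21 (GRCm38), and promoters from RefSeq (GRCm38.p6). Alternatives were a pseudocount of 0.5 or 8, a minimum mean of 1 or 50, scaling by TMM or to equal totals, no trend, replicate number as a block, and omission of each library.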

Additional observations from a re-analysis of the deposited data

How the results depend on the processing

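All 10 members stayed below 0 and none passed an adjusted p of 0.05 in limma under both other pseudocounts and minimum means, TMM scaling, equal totals, the fit without the trend and the fit with the block, and the median of the members lay between -0.35 and -0.30. Without the trend 1 gene outside the members was called (limma, adjusted p 0.0307), and the cause was not tested. Without the trend 0 members had an unadjusted p under 0.05. Equal totals raised every list median and moved those of other AP-1 proteins to 0.041, further early genes to -0.030, heat shock genes to 0.053, feedback inhibitors to -0.13, upstream kinases to -0.013, upstream factors to 0.014 and delayed response genes to 0.020. Mesothelial markers gave no value at a minimum mean of 50.

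With 1 library left out a limma fit assumes that the lone library varies like the other group. The number of genes called stayed at 0, and that at an unadjusted p under 0.05 ranged from 273 to 3362. The median of the members ranged from -0.55 to -0.13 and their number below 0 from 7 to 10. Their number with every remaining mutant below every remaining control ranged from 5 to 10. A lone library separates from a pair more easily, and shares over all genes were not computed for this count. *Jun* ranged from -0.28 to 0.021, *Junb* from -0.37 to 0.11 and *Ier2* from -0.60 to 0.24, and the other 7 members stayed below 0, with *Fos* from -0.68 to -0.013 and *Egr1* from -0.65 to -0.061. List medians ranged from -0.084 to 0.065 for other AP-1 proteins, -0.23 to 0.12 for further early genes, -0.24 to -0.16 for feedback inhibitors, -0.063 to -0.028 for upstream kinases, -0.085 to -0.0086 for upstream factors, -0.033 to 0.097 for delayed response genes, -0.063 to 0.075 for heat shock genes, -0.11 to 0.20 for glucocorticoid-responsive genes, -0.85 to -0.37 for alveolar type 2 markers, -0.89 to -0.10 for alveolar type 1 markers and -1.92 to 0.43 for mesothelial markers.

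Deviations of same-numbered libraries from their group means correlated by 0.13 over 2 pairs, which does not show that the numbers pair libraries. Blocking on replicate number called 0 genes and 0 members, 1637 genes had an unadjusted p under 0.05, against 1112 without it, and the median of the members was -0.35. Counting error was 2.19% to 8.33% for the member values if 1 normalized count were 1 read, and no calculation of the detectable difference was made.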
